A study of Schizosaccharomyces pombe with 9 samples.

Results

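The vesicle traffic genes of fission yeast were followed across 9 arrays, 1 for each of 8 gene deletions and 1 for WT. They were chosen by name: a probe set was taken where its *S. pombe* gene symbol in the array annotation began with vps, sec, bet, ypt, cog, arf, apm, apl, aps, sar or sft and went on with digits alone. The translocon and signal recognition genes *sec61*, *sec62*, *sec63* and *sec65* were left out. This gave 94 probe sets of 94 genes, out of 2899 *S. pombe* genes with a named probe set. The rule used no measured value. It takes genes by their names, so that 5 of the 94 make products that do not act in vesicle traffic, and many traffic genes with other names are not among them.

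The study screened a deletion library of *S. pombe* for sensitivity to DNA damage and profiled the transcripts of some sensitive strains. The deleted genes were *sgf73* (a subunit of the SAGA histone acetylase), *meu29*, *SPAC3F10.17*, *ash2* (a subunit of the histone H3K4 methyltransferase complex), *SPAC27D7.08C*, *SPBC2A9.02*, *pab1* (a regulatory subunit of protein phosphatase PP2A) and *sec65* (a subunit of the signal recognition particle). RNA came from untreated cells in exponential growth, at an OD600 of 0.5 to 1. The deletions came from a haploid library, whereas the labels call the WT strain, SP286 with the genotype h+ ade6-M210 ura4-D18 leu1-32, diploid, so that a difference in ploidy cannot be told apart from the deletions in any ratio to WT. Each genotype had 1 array. No difference below has a replicate check or a p-value, all 8 ratios of a gene share the same WT array, and the deletions are of different genes and are not replicates of each other.

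Proteins made at the endoplasmic reticulum (ER) reach the Golgi in vesicles with a COPII coat, and COPI-coated vesicles carry material back. From the Golgi, cargo moves to the cell surface or, with the help of clathrin adaptors, to endosomes and the vacuole, and retromer returns sorting receptors from endosomes. At each step a Rab GTPase and a tethering complex bring the vesicle to its target membrane, where SNARE proteins drive fusion and are then taken apart for reuse. Most of this machinery is shared by all eukaryotes and is used in growing cells at all times.

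The transcripts of the 94 genes were well measured. Every one of them lay above background on all 9 arrays, where background was the 95th percentile of the *S. cerevisiae* probe sets that the same array carries. The lowest signal was that of *vps51* in *sgf73*Δ, 122 on the linear scale and 3.12 times the background of that array. Over the 9 arrays the members' median log2 signal was 10.52, against 10.50 for all named genes. The probe sets with the highest mean signals were those of *arf1* (13.72), *ypt1* (13.17) and *ypt3* (13.00), and those with the lowest were *vps51* (7.31), *sec39* (8.54) and *cog1* (8.58). Probe sets differ in how well they bind, so that these values do not rank the genes by transcript number.

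Between 98.5% and 99.1% of all named genes lay above background on an array. The targeted gene was 33.8 times lower than in WT in *sgf73*Δ, 12.6 times lower in *meu29*Δ and at background, at least 23.0 times lower, in *ash2*Δ. It was at 0.609 times its WT level on the array labelled *pab1*Δ and at 0.679 times on the array labelled *sec65*Δ. Both signals were above background, so that a loss of the transcript was not seen on these arrays. No probe set was named for the other targeted genes. These 2 arrays were the closest and differed by an SD of 0.144 in log2 over all genes, or 0.10 per array. This is the nearest these data have to a measure of array noise, and it holds any difference between those strains as well. It comes from the most similar pair of arrays and is likely to understate the variation between cultures.

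The vesicle traffic genes stayed close to WT in the 8 deletions. At a 2-fold difference 1 of 94 genes passed in *meu29*Δ (*cog5*), against 4.49% of all measured genes, 1 in *SPAC3F10.17*Δ (*vps51*), against 3.34%, and 1 in *SPAC27D7.08C*Δ (*bet1*), against 2.33%. All of these were higher than in WT. No member passed in *sgf73*Δ, where 5.98% of all measured genes did, nor in *ash2*Δ (2.23% of all genes), *SPBC2A9.02*Δ (2.27%) or on the array labelled *pab1*Δ (1.36%) or that labelled *sec65*Δ (1.36%). Over all deletions 3 genes passed in 1 or more, or 3.19% of the members, against 11.1% of all genes.

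At 1.5-fold the shares of the members were also below those of all genes in each deletion. In *sgf73*Δ 8 members differed (8.51%, against 18.4% of all measured genes), 5 of them higher (all genes 8.96%) and 3 lower (all genes 9.45%). In *meu29*Δ 5 members differed (5.32%, against 16.2%), 3 higher (all genes 8.53%) and 2 lower (all genes 7.66%). There were 3 in *SPAC3F10.17*Δ (3.19%, against 11.6%), with 1 higher (all genes 6.41%) and 2 lower (all genes 5.19%).

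The other deletions had 3 or fewer. In *ash2*Δ 3 members passed (3.19%, against 8.54% of all genes), with 1 higher (all genes 3.00%) and 2 lower (all genes 5.54%). In *SPAC27D7.08C*Δ 2 were higher (all genes 5.02%) and 0 lower (all genes 1.71%), in all 2.13%, against 6.72%. In *SPBC2A9.02*Δ 1 was higher (all genes 3.38%) and 0 lower (all genes 2.83%), in all 1.06%, against 6.21%. No member passed on the array labelled *pab1*Δ, where 2.13% of all genes were higher and 2.26% lower (4.39% in all), or on that labelled *sec65*Δ, where 2.16% were higher and 1.74% lower (3.90% in all).

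**Figure D1:**
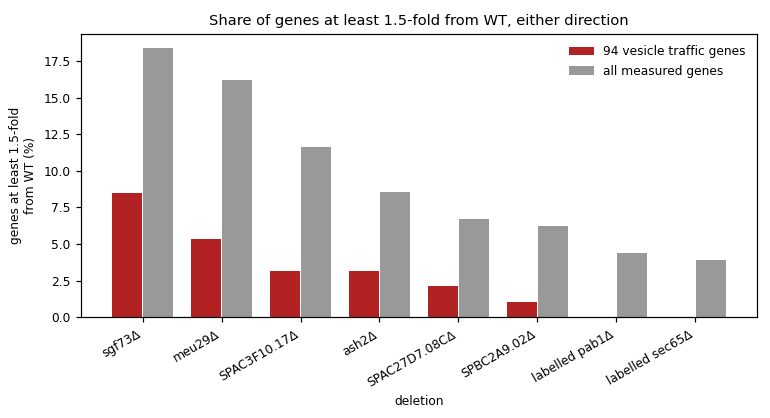
Share of genes, in percent, whose signal was at least 1.5-fold from WT in either direction (vertical axis), for the 94 vesicle traffic genes (red) and all measured genes (grey) in each deletion (horizontal axis, 1 array each). The red bar is the lower one in every deletion, from 8.51% against 18.4% in sgf73Δ down to 0 of 94 genes on the pab1Δ and sec65Δ arrays as labelled.

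Over the 8 deletions together, 22 of 752 member ratios (2.93%) were at least 1.5-fold from WT, 13 higher and 9 lower, against 2182 of 22971 ratios (9.50%) of all genes. They fell on 16 genes (17.0% of the members, against 33.5% of all genes), and 5 genes passed in 2 deletions or more (5.32%, against 17.9%). The ratios of 22 members stayed within 1.2-fold in all 8 deletions (23.4%, against 18.4%). The range of a member's log2 signal over the 9 arrays had a median of 0.51, against 0.63 for all genes, and was above 1 in 6 members (6.38%), against 20.8% of all genes.

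The typical member did not shift much either way. Its median log2 ratio lay between -0.064, in *sgf73*Δ, and 0.042, on the array labelled *sec65*Δ. The median of all genes lay between -0.030 and 0.072. The middle 50% of the members spanned 0.36 in log2 in *sgf73*Δ, against 0.49 for all genes, and 0.17, against 0.24, on the array labelled *sec65*Δ. The members had the narrower span in each of the 8 deletions.

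**Figure D2:**
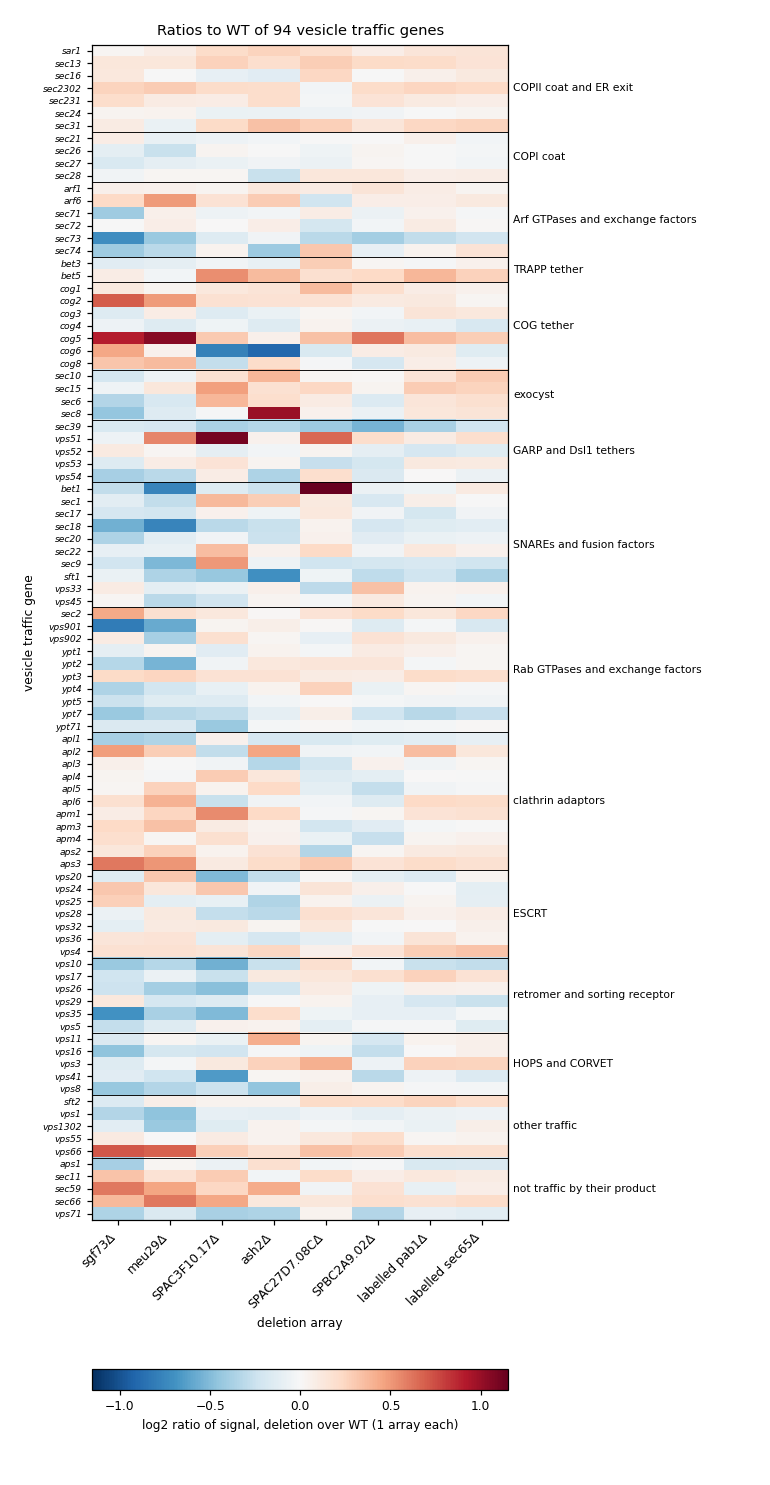
Log2 ratio of signal, deletion over WT (colour scale, red higher and blue lower than WT), for each of the 94 genes (rows, in their role groups) in the 8 deletions (columns, 1 array each). Most cells are pale, and the darkest are those of cog5 in sgf73Δ and meu29Δ, vps51 in SPAC3F10.17Δ, sec8 and cog6 in ash2Δ and bet1 in SPAC27D7.08CΔ.

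Genes of the COPII coat, which buds vesicles from the ER, lay slightly above WT. Of the 56 ratios of the 7 genes, 44 were above WT (78.6%, against 53.7% of all ratios of measured genes), and the group's median log2 ratio was between 0.086 and 0.21 in the 8 deletions, above the median of all genes in each. It stayed positive in all 8 after scaling to equal medians (0.064 to 0.23) and after quantile normalization (0.074 to 0.21). With the other 7 deletions in place of WT as the comparison it lay between -0.062 and 0.047, so that the shift was seen against the WT array alone. It was not particular to COPII. Coat, clathrin and cargo receptor genes with other names had 74% of their ratios above WT and medians between 0.034 and 0.17. The translocon and signal recognition genes left out by the rule had 81.2% above WT. No COPII ratio reached 1.5-fold, against 9.50% of all ratios.

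Within the coat, *sar1*, the GTPase that starts coat assembly, was at 1.01 to 1.19 times its WT level, and *sec13*, of the outer layer, at 1.09 to 1.21 times. Both were above WT in all 8 deletions. The outer layer gene *sec31* had the highest ratio of the group, 1.27 in *ash2*Δ. The cargo-binding *sec24* had the smallest range of all 94 members, with log2 signals between 12.34 and 12.45 over the 9 arrays, a span of 0.12. The inner layer genes *sec231* and *sec2302* were at 0.979 to 1.22 times WT, and *sec16*, which marks ER exit sites, at 0.915 to 1.18 times.

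The 4 genes of the COPI coat, *sec21*, *sec26*, *sec27* and *sec28*, were at 0.835 to 1.10 times WT, and their median log2 ratio lay between -0.094 and 0.025. Arf GTPases recruit coats to Golgi membranes. The transcript of *arf1* was steady, with log2 signals of 13.71, 13.70, 13.68, 13.77, 13.75, 13.80, 13.73 and 13.69 in the deletions (in the order in which the deleted genes were introduced, from *sgf73* to *sec65*, as in all lists of values below) and 13.65 in WT. All deletion arrays were higher than WT, by at most 1.11 times.

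Among the other Arf genes the values were more spread. The ratio of *arf6*, which acts at the plasma membrane, was 1.41 in *meu29*Δ and 0.854 in *SPAC27D7.08C*Δ. The exchange factor genes *sec71* and *sec74*, whose products load Arf with GTP, were at 0.754 and 0.751 times WT in *sgf73*Δ, and *sec74* was at 0.747 times in *ash2*Δ as well. Of the 48 ratios of this group 1 was past 1.5-fold (2.08%, against 9.50% of all ratios). The gene was a further exchange factor gene, *sec73*, at 0.610 times WT in *sgf73*Δ. It was below WT in all 8 deletions, with 0.761 in *SPBC2A9.02*Δ and 0.744 in *meu29*Δ, whereas *sec72* stayed between 0.871 and 1.07.

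Among the tethering complexes were *cog5* and *vps51*, both past 2-fold in 1 deletion. The COG complex, a tether for vesicles that move back within the Golgi, had 7 members with 56 ratios. Of these ratios 4 were at least 1.5-fold higher than WT (7.14%, against 4.95% of all ratios of measured genes) and 2 lower (3.57%, against 4.55%). The gene with the most such ratios was *cog5*. Its log2 signals were 11.47, 11.62, 10.87, 10.63, 10.91, 11.19, 10.93 and 10.85 in the deletions and 10.57 in WT. It was above WT on all 8 arrays, at 2.07 times in *meu29*Δ, 1.87 times in *sgf73*Δ and 1.53 times in the deletion of *SPBC2A9.02*, while *ash2*Δ was within 1.04 times of WT.

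A further COG gene, *cog6*, was low in other deletions. Its log2 signals were 10.83, 10.44, 9.61, 9.49, 10.21, 10.48, 10.49 and 10.24 in the deletions and 10.39 in WT. The arrays of *SPAC3F10.17*Δ and *ash2*Δ stood apart at 0.584 and 0.535 times WT, which were the lowest member ratios in those deletions. In *sgf73*Δ it was at 1.36 times WT.

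The transcript of *cog2* was at 1.62 times WT in *sgf73*Δ and 1.41 times in *meu29*Δ, with 1.02 to 1.13 times elsewhere. The remaining subunits were close to WT: *cog1* at 1.02 to 1.29 times, *cog3* at 0.899 to 1.11 times, *cog4* at 0.882 to 1.03 times and *cog8* at 0.828 to 1.29 times. So the 7 COG genes did not move as 1 group. In *ash2*Δ *cog6* was at 0.535 times WT while the other 6 lay between 0.904 and 1.16 times.

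**Figure D3:**
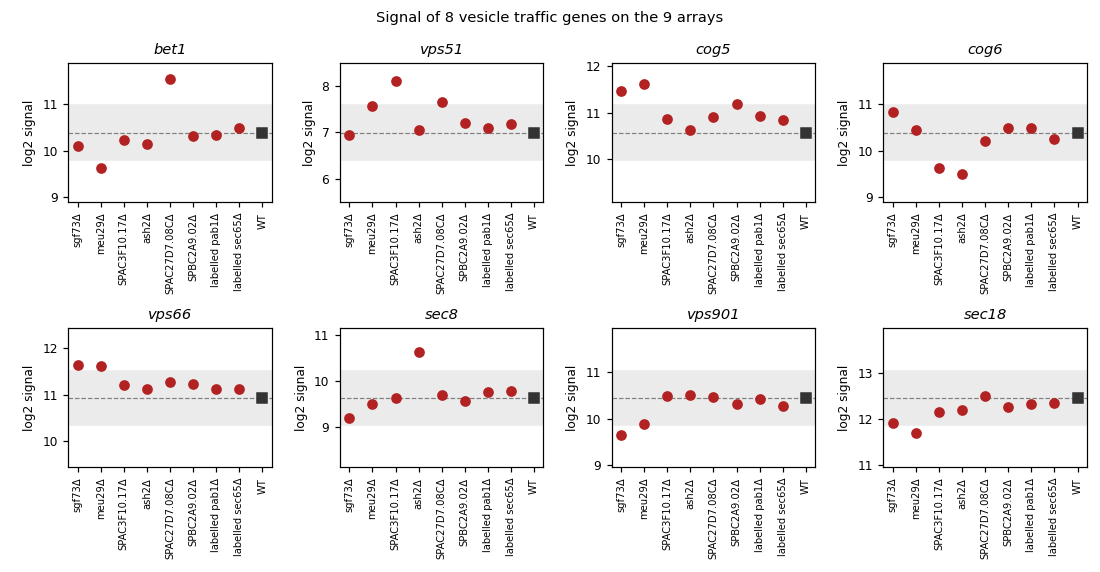
Log2 signal (vertical axes, all of the same length and each centred on the WT value of its gene) of 8 vesicle traffic genes on the 9 arrays. Deletions are red points, WT is a dark square and dashed line, and the grey band marks 1.5-fold either side of WT. The point of bet1 in SPAC27D7.08CΔ lies 1.15 above WT, while cog5 and vps66 are high in both sgf73Δ and meu29Δ.

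The exocyst tethers secretory vesicles at sites of growth and septation. One of its 4 genes stood out in 1 deletion. The log2 signals of *sec8* were 9.20, 9.49, 9.62, 10.63, 9.69, 9.58, 9.77 and 9.78 in the deletions and 9.64 in WT. The *ash2*Δ array was the highest, at 1.99 times WT, just under the 2-fold threshold, and *sgf73*Δ the lowest, at 0.736 times. The other exocyst genes reached 1.30 times WT in *ash2*Δ (*sec10*) and 1.39 and 1.30 times in *SPAC3F10.17*Δ (*sec15* and *sec6*). The median of the 4 genes was -0.27 in log2 in *sgf73*Δ and 0.29 in *ash2*Δ.

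GARP tethers vesicles that return from endosomes to the late Golgi. Its gene *vps51* had the weakest probe set of the 94, with log2 signals of 6.93, 7.56, 8.10, 7.04, 7.66, 7.20, 7.09 and 7.19 in the deletions and 7.00 in WT. It was at 2.15 times WT in *SPAC3F10.17*Δ, 1.58 times in *SPAC27D7.08C*Δ and 1.48 times in *meu29*Δ. These values depend on the scaling at this low signal. After quantile normalization the log2 ratio was 0.88 in *SPAC3F10.17*Δ, against 1.10 as deposited, and 0.16 in *SPAC27D7.08C*Δ, against 0.66.

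The other GARP genes did not share this pattern. Their ratios were 0.874 to 1.08 for *vps52*, 0.830 to 1.11 for *vps53* and 0.767 to 1.14 for *vps54*. The gene *sec39*, whose budding yeast counterpart belongs to the Dsl1 tether at the ER, was below WT in all 8 deletions. Its log2 signals were 8.65, 8.63, 8.46, 8.50, 8.41, 8.29, 8.45 and 8.61 in the deletions and 8.83 in WT. It was the lowest member in *SPAC27D7.08C*Δ (0.749), *SPBC2A9.02*Δ (0.692) and on the array labelled *pab1*Δ (0.773). The 2 TRAPP genes, which act with the Rab Ypt1 at the Golgi, were at 0.915 to 1.22 times WT (*bet3*) and 0.979 to 1.45 times (*bet5*). On the array labelled *pab1*Δ *bet5* was the highest member, at 1.30 times.

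Among SNAREs and fusion factors, *bet1* had the largest range of all 94 genes over the arrays, 1.92 in log2. It encodes a SNARE for fusion of ER-derived vesicles with the Golgi. Its log2 signals were 10.10, 9.62, 10.24, 10.15, 11.54, 10.32, 10.34 and 10.49 in the deletions and 10.39 in WT. The *SPAC27D7.08C*Δ array was the highest, at 2.22 times WT, and *meu29*Δ the lowest, at 0.588 times. In the other deletions the ratio lay between 0.819 and 1.07. With the other 7 deletions as the comparison, its log2 ratio in *SPAC27D7.08C*Δ was 1.30. Most members moved the other way: of the 22 member ratios past 1.5-fold from WT, 9 stayed past it with that comparison.

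Of the factors that take SNARE complexes apart, the ATPase gene *sec18* (NSF) had log2 signals of 11.90, 11.69, 12.15, 12.20, 12.50, 12.26, 12.32 and 12.34 in the deletions and 12.46 in WT. It was at 0.681 times WT in *sgf73*Δ and 0.588 times in *meu29*Δ, and *sec17*, for its adaptor alpha-SNAP, was at 0.875 and 0.863 times there. The Golgi SNARE gene *sft1* was below WT in all 8 deletions, at 0.614 times in *ash2*Δ and at 0.777 times on the array labelled *sec65*Δ, where it was the lowest member.

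For the 10 genes of this group 25 ratios were above WT (31.2%, against 53.7% of all ratios of measured genes) and 55 below. The group's median log2 ratio was lowest in *meu29*Δ, at -0.30, and highest in *SPAC27D7.08C*Δ, at 0.047. The plasma membrane SNARE gene *sec9* was at 1.41 times WT in *SPAC3F10.17*Δ and 0.697 times in *meu29*Δ. The ER SNARE genes *sec20* and *sec22* stayed within 0.779 and 1.28 times, as did *vps45* (0.804 to 1.08). *sec1*, *vps33* and *vps45* encode Sec1-family proteins that assist SNARE pairing, and *sec1* lay between 0.823 and 1.30 times.

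The gene *vps33* lies next to *SPBC2A9.02* in the annotation. Its ratio in *SPBC2A9.02*Δ was 1.27, or 0.34 in log2, the highest of the 9 arrays, against -0.30 to 0.097 in the other deletions. Within 10 coding genes of the same locus lay also *ypt1*, at 0.097 in log2 in that deletion and -0.13 to 0.058 in the others, and *sec22*, at -0.041. Whether the deleted locus had a part in these values was not tested.

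The 10 genes of Rab GTPases and their exchange factors had their lowest medians, -0.19 and -0.21 in log2, in *meu29*Δ and *sgf73*Δ, and medians between -0.064 and 0.042 in the other deletions. Of the 80 ratios 1 passed 1.5-fold (1.25%, against 9.50% of all ratios), that of the Rab5-type exchange factor gene *vps901*. It had log2 signals of 9.65, 9.88, 10.48, 10.52, 10.46, 10.31, 10.43 and 10.27 in the deletions and 10.45 in WT. It was at 0.573 times WT in *sgf73*Δ, the lowest member there, and at 0.670 times in *meu29*Δ, with the other deletions between 0.879 and 1.05. Its paralog *vps902*, now named *muk1*, was at 1.07 times in *sgf73*Δ and 0.769 times in *meu29*Δ.

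Of the Rab genes, *ypt1*, for traffic from the ER to the Golgi, stayed within 0.912 and 1.07 times WT and *ypt5*, the early endosome Rab, within 0.844 and 1.00. The gene *ypt3*, for traffic through the late Golgi, was at 1.06 to 1.19 times WT, above it in all 8 deletions. The exocytic Rab gene *ypt2* was at 0.798 times in *sgf73*Δ and 0.691 times in *meu29*Δ, whereas *sec2*, named for the exchange factor of the exocytic Rab in budding yeast, was at 1.35 and 1.13 times. The vacuolar Rab gene *ypt7* was below WT in 7 deletions, at 0.741 times in *sgf73*Δ, and its paralog *ypt71* was at 0.745 times in *SPAC3F10.17*Δ. The ratios of *ypt4* lay between 0.780 and 1.21.

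Clathrin adaptors choose the cargo of clathrin-coated vesicles. Their 11 genes had medians between -0.11 and 0.26 in log2, the highest in *meu29*Δ. Of the 88 ratios 1 passed 1.5-fold (1.14%, against 9.50% of all ratios). The gene was *aps3*, for a small subunit of the AP-3 adaptor for traffic to the vacuole, at 1.53 times WT in *sgf73*Δ. It was 1.42 times in *meu29*Δ and above WT in all 8 deletions. The other AP-3 genes *apl5*, *apl6* and *apm3* were at 1.2, 1.32 and 1.27 times in *meu29*Δ, and none was above 1.17 times in *sgf73*Δ. Among AP-1 genes, for traffic between Golgi and endosomes, *apm1* reached 1.46 times in *SPAC3F10.17*Δ, *apl2* 1.40 times in *sgf73*Δ and *apl4* 1.22 times in *SPAC3F10.17*Δ. The AP-2 genes of endocytosis, *apl1*, *apl3*, *apm4* and *aps2*, lay between 0.766 and 1.2 times.

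ESCRT complexes sort membrane proteins into vesicles inside endosomes. None of the 56 ratios of the 7 ESCRT genes among the members reached 1.5-fold, against 9.50% of all ratios. ESCRT genes with other names are given further below, and some of them, such as *sst4* and *dot2*, did reach it. The ATPase gene *vps4*, whose product disassembles ESCRT-III, was above WT in all 8 deletions, at 1.04 to 1.25 times, and was the highest member on the array labelled *sec65*Δ. The largest ratio below WT was that of *vps20*, 0.705 in *SPAC3F10.17*Δ, and the same gene was at 1.24 times in *meu29*Δ. *vps24* and *vps25* were at 1.24 and 1.21 times in *sgf73*Δ and *vps28* and *vps25* at 0.804 and 0.787 times in *ash2*Δ. The ratios of *vps32* and *vps36* lay between 0.874 and 1.12.

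Retromer genes had medians below WT in *sgf73*Δ, *meu29*Δ and *SPAC3F10.17*Δ, with 1 of their ratios past 1.5-fold. The median log2 ratio of the 5 retromer genes and the sorting receptor gene *vps10* was -0.26 in *sgf73*Δ, -0.26 in *meu29*Δ and -0.37 in *SPAC3F10.17*Δ, and lay between -0.081 and 0.066 in the other deletions. These 3 medians kept their sign after median scaling, after quantile normalization and against the other 7 deletions. Of the 48 ratios 14 were above WT (29.2%, against 53.7% of all ratios) and 34 below. Past 1.5-fold was 1 of the 48 (2.08%, against 9.50% of all ratios).

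The ratio past 1.5-fold belonged to *vps35*, the core of the cargo-binding part. Its log2 signals were 10.0025, 10.32, 10.19, 10.90, 10.65, 10.60, 10.60 and 10.67 in the deletions and 10.70 in WT. It was at 0.618 times WT in *sgf73*Δ, 0.772 times in *meu29*Δ and 0.702 times in *SPAC3F10.17*Δ. In these deletions *vps26* was at 0.849, 0.761 and 0.715 times and *vps10* at 0.741, 0.797 and 0.681 times. *vps29*, of the same core, was at 1.09, 0.875 and 0.899 times. The sorting nexin genes *vps5* and *vps17*, whose products bind the membrane, had ratios of 0.826 to 1.04 and 0.836 to 1.2 over the 8 deletions.

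HOPS and CORVET tether membranes at the vacuole and the endosome. This group leaves out *vps33*, which was counted with the SNAREs and fusion factors, and genes with other names. The median of its 5 genes was -0.17 in *sgf73*Δ, -0.20 in *meu29*Δ, -0.22 in *SPAC3F10.17*Δ and -0.20 in *SPBC2A9.02*Δ, and between 0.0077 and 0.056 elsewhere. The HOPS gene *vps41* was at 0.637 times WT in *SPAC3F10.17*Δ, the one ratio of 40 past 1.5-fold (2.5%, against 9.50% of all ratios). *vps11* and *vps16*, shared by both complexes, had ratios of 0.873 to 1.34 and 0.723 to 1.04. The CORVET genes *vps3* and *vps8* went apart in *ash2*Δ, at 1.2 and 0.729 times.

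**Figure D4:**
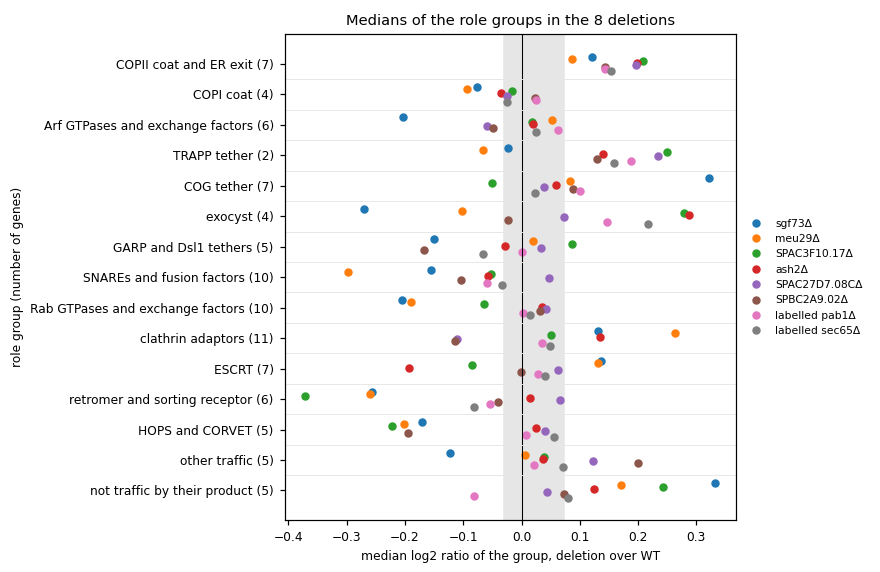
Median log2 ratio of signal, deletion over WT (horizontal axis), of each role group (rows, number of genes in parentheses) in the 8 deletions (colours, 1 array each); the grey band spans the medians of all measured genes, -0.030 to 0.072. COPII medians lie right of zero in all 8 deletions, and retromer medians in sgf73Δ, meu29Δ and SPAC3F10.17Δ lie at -0.26 or below.

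Of 5 further genes, *vps66* was past 1.5-fold in *sgf73*Δ and *meu29*Δ (5% of the group's 40 ratios, against 9.50% of all ratios). Its log2 signals were 11.65, 11.62, 11.21, 11.12, 11.27, 11.23, 11.13 and 11.12 in the deletions and 10.94 in WT, so that each deletion array exceeded WT. The ratios were 1.64 in *sgf73*Δ, 1.60 in *meu29*Δ and 1.13 to 1.26 elsewhere. The dynamin-family gene *vps1* was below WT in all 8 deletions, at 0.791 times in *sgf73*Δ and 0.723 times in *meu29*Δ. *vps1302*, for a lipid transfer protein of the Vps13 family, was at 0.744 times in *meu29*Δ. *sft2* and *vps55* stayed between 0.899 and 1.2 times.

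The 5 genes whose products do not act in vesicle traffic had 2 of 40 ratios past 1.5-fold (5%, against 9.50% of all ratios). *sec59*, for dolichol kinase in protein glycosylation, was at 1.53 times WT in *sgf73*Δ, and *sec66*, for a partner of the ER translocon, at 1.52 times in *meu29*Δ. The signal peptidase gene *sec11* reached 1.26 times in *sgf73*Δ. *vps71* encodes a subunit of the Swr1 chromatin remodelling complex and lay between 0.773 and 1.03 times, and *aps1*, for a nucleotide and inositol phosphate hydrolase, between 0.769 and 1.13 times. Without these 5 genes, 20 of 712 member ratios (2.81%) were past 1.5-fold, against 9.50% of all ratios.

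Some members lay on the same side of WT in all 8 deletions. There were 13 members above WT throughout (13.8%, against 8.85% of all genes), among them *sar1*, *sec13*, *arf1*, *cog5*, *ypt3*, *vps4* and *vps66*, and 4 below it (4.26%, against 5.66%), *sec39*, *sft1*, *vps1* and *sec73*. Since all 8 ratios use 1 WT array, a high or low reading of that array moves them together.

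Genes often overlap in the compact genome of *S. pombe*. In the annotation 44 of the 94 members (46.8%) overlapped another protein-coding gene, against 42.7% of 2892 named genes. Of the 16 members past 1.5-fold, 10 overlapped one, and for 4 the partner also had a named probe set. The matching share over all genes past 1.5-fold was not taken, so that these counts do not show more overlap among changed members. The strand of the overlap was not used. *bet1* overlapped no coding gene.

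The partner of *sec8*, the ubiquitin ligase gene *brl2*, was high in the same deletion. Its log2 ratios were 0.18, 0.25, 0.34, 1.40, -0.17, 0.18, 0.14 and 0.11, so that both genes were highest in *ash2*Δ. The partner of *cog5*, *tbf1*, had ratios between -0.43 and -0.010 in log2, below WT in every deletion, while *cog5* was above WT in every deletion. Both had their lowest ratio in *ash2*Δ. The partner of *cog6*, *ste13*, had its lowest ratio, -0.39, in *meu29*Δ and 0.094 in *ash2*Δ, where *cog6* was lowest. The partner of *vps51*, *tps2*, lay between -0.35 and 0.082. The part of overlapping transcripts in the members' values was not tested.

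**Figure D5:**
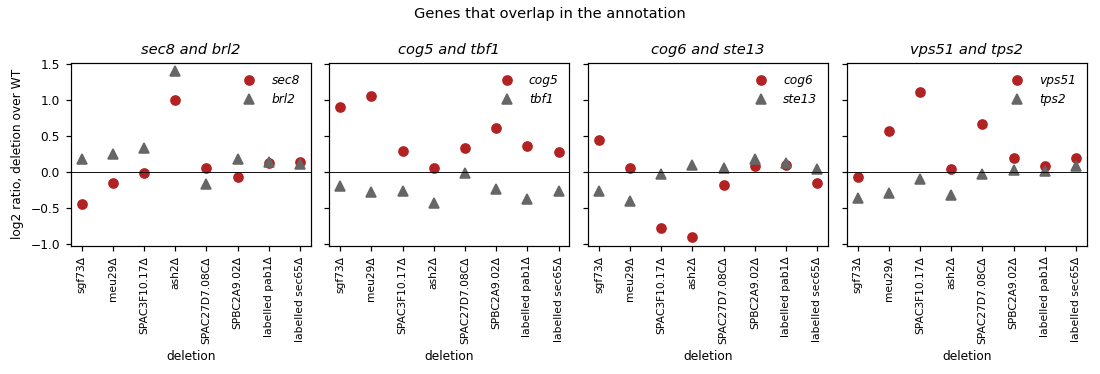
Log2 ratio of signal, deletion over WT (vertical axis), of 4 vesicle traffic genes (red circles) and the gene that each overlaps in the annotation (grey triangles) in the 8 deletions (horizontal axis, 1 array each). In ash2Δ sec8 and brl2 are high together, at 0.99 and 1.40. In all 8 deletions cog5 is above WT and tbf1 below it, and both are lowest in ash2Δ.

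Genes of the same pathways with other names were read from 4 lists. Over all measured genes and the 8 deletions, 4.95% of ratios were at least 1.5-fold higher and 4.55% lower, and the lists' counts stand against these shares. Of 15 further SNARE genes 12 had a named probe set, and of their 96 ratios 0 were at least 1.5-fold higher and 8 (8.33%) lower. In either direction the share was 8.33%, against 9.50% of all ratios. Of the 96 ratios 51 were above WT (53.1%, against 53.7% of all ratios). The list's median log2 ratio lay between -0.041 and 0.10 in the 8 deletions. The Golgi SNARE gene *gos1* was at -0.80 in log2 in *meu29*Δ, -0.79 in *SPAC3F10.17*Δ and 0.54 in *SPAC27D7.08C*Δ. The last was the deletion with the highest *bet1*. There *bos1* and *sed5*, whose products pair with Bet1 in budding yeast, were at 0.47 and -0.025. The endosomal SNARE gene *pep12* was at -0.82, -0.59 and -0.69 in *sgf73*Δ, *meu29*Δ and *SPAC3F10.17*Δ. A further one, *fsv1*, was at -0.79 in *sgf73*Δ, -0.76 in *meu29*Δ and -0.71 in *ash2*Δ, with -0.26 in *SPAC3F10.17*Δ. Other SNARE genes of the list went the other way. In *sgf73*Δ, *meu29*Δ and *SPAC3F10.17*Δ *tlg1* was at 0.55, 0.54 and 0.37, and *tlg2* at 0.24, 0.35 and -0.067. The first of them, *tlg1*, was above WT in all 8 deletions.

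Of 20 further coat, clathrin and cargo receptor genes 12 were measured, and 0 of 96 ratios passed 1.5-fold in either direction, against 9.50% of all ratios. Of 28 tether and Rab regulator genes 19 had a named probe set, with 1 of 144 ratios (0.694%) at least 1.5-fold higher and 4 (2.78%) lower. The higher one was the tether gene *uso1*, at 0.89 in log2 in *meu29*Δ. The lower ones included *gyp7*, for a GTPase-activating protein of the vacuolar Rab, at -1.34 in *sgf73*Δ, -0.998 in *meu29*Δ and -0.98 in *SPAC3F10.17*Δ. Of the 23 genes for endosomal and vacuolar sorting and autophagy 21 were measured. Of their 168 ratios 0 were at least 1.5-fold higher and 16 (9.52%) lower. In either direction this share was that of all ratios (9.50%), though all of it lay below WT, where 4.55% of all ratios did. Of the 21 genes 5 were lower in *sgf73*Δ (all genes 9.45%), 5 in *meu29*Δ (all genes 7.66%), 4 in *SPAC3F10.17*Δ (all genes 5.19%) and 2 in *ash2*Δ (all genes 5.54%).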

How the data were processed

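Total RNA (RNeasy Mini) from 1 sample of each genotype was made into biotin-labelled cRNA (3' IVT Express) and hybridised to Affymetrix Yeast Genome 2.0 arrays, 9 in all. The authors deposited 1 column of log2 signals per array. MAS5 is named in the submitters' processing notes with no role, and the normalization of the signals is not stated there. They were used as deposited.

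Of 10928 probe sets, 2917 were assigned to 2899 *S. pombe* genes of the assembly ASM294v3, which served for names and neighbours alone, since no source names the assembly behind the array. A gene with several probe sets was represented by 1, unique before shared types and then the brightest on average. Background on an array was the 95th percentile over its 2601 *S. cerevisiae* probe sets, and weaker signals were set to it. A ratio was taken if the deletion array, the WT array or both exceeded background. Ratios to WT of at least 2 or 1.5 in either direction were counted with no test. The number of arrays limits the precision.

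The members, role groups and lists were chosen with earlier results of these data known. Genes named by rule were the highest and lowest member in each deletion, members past 1.5-fold in 2 deletions or more, those with the 3 highest and 3 lowest signals and the smallest ranges, and those with products outside traffic; others were named to account for every member. Alternatives were median scaling, quantile normalization, no floor, a stricter background, both arrays above background, a pseudocount of 50, the mean of a gene's probe sets, other thresholds and the other 7 deletions as the comparison. Python 3.11.15, numpy 2.4.6, pandas 2.3.3 and matplotlib 3.10.9 were used, and the counting was tested on simulated data. No sequences are printed.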

Additional observations from a re-analysis of the deposited data

How the results depend on the processing

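No paired analysis was possible because each genotype had 1 array, so that the groups share fewer than 2 replicate numbers. The 8 median log2 ratios moved by less than 0.10 under every alternative run. The counts of members past 2-fold were small and moved. With a 1.5-fold threshold they were 8 in *sgf73*Δ, 5 in *meu29*Δ, 3 in *SPAC3F10.17*Δ, 2 in *SPAC27D7.08C*Δ, 3 in *ash2*Δ and 1 in *SPBC2A9.02*Δ, and with a 3-fold threshold 0 in *meu29*Δ, *SPAC3F10.17*Δ and *SPAC27D7.08C*Δ, since fewer genes reach it. In *ash2*Δ 1 member (*sec8*) passed 2-fold after median scaling, after quantile normalization and against the other 7 deletions. In *SPAC3F10.17*Δ 0 passed after quantile normalization, with a pseudocount of 50 and against the other 7 deletions, and in *meu29*Δ 0 against the other 7; the cause was not tested. Of the 22 ratios past 1.5-fold, 22 remained after median scaling and 19 after quantile normalization. With the other 7 deletions as the comparison there were 11, of which 9 were among the 22. The median of *SPAC3F10.17*Δ, 0.017 as deposited, was -0.056 after median scaling, -0.032 after quantile normalization and -0.033 with the other 7 deletions as the comparison. No other of the 8 medians over the 94 genes changed sign, nor did any of the 22 ratios past 1.5-fold after quantile normalization, with no floor or with that comparison. With the other 7 deletions as the comparison, the COPII median changed sign in 4 deletions and that of SNAREs and fusion factors in 4. The 2 closest arrays differed by an SD of 0.144 in log2 over all genes. With 1 array per genotype, differences of that size or smaller cannot be told from array noise, and variation between cultures can be larger.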

Other observations

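In the endosome and vacuole list, 9.52% of the ratios were at least 1.5-fold lower than WT, against 4.55% of the ratios of all genes. The list's median log2 ratio was -0.31 in *sgf73*Δ, -0.25 in *meu29*Δ and -0.33 in *SPAC3F10.17*Δ, against -0.17 in *ash2*Δ and -0.0028 to 0.090 in the other deletions. With the other 7 deletions as the comparison, the first 3 of these deletions had medians of -0.16, -0.20 and -0.18, and the others -0.037 to 0.22. The ESCRT-0 gene *sst4* was at -1.07, -1.12 and -0.87 in log2 in these 3 deletions, and *atg8*, for the ubiquitin-like protein of autophagosomes, at -0.62, -0.72 and -0.71. The autophagy genes *atg6* and *atg1* were at -0.90 and -1.18 in *sgf73*Δ, and the vacuolar protease gene *isp6* at -0.96 there and -0.97 in *meu29*Δ. The sorting nexin gene *mvp1* was lowest in *SPAC3F10.17*Δ, at -1.19. In *ash2*Δ the genes past 1.5-fold were others, the ESCRT-II gene *dot2* at -1.13 and *sst6* at -0.66. Not all genes of the list were low. In *sgf73*Δ *dot2* was at 0.42 and *sst6* at 0.20. In *sgf73*Δ, *meu29*Δ and *SPAC3F10.17*Δ *ist1* was at 0.18, 0.12 and 0.10, and *vma1* at -0.057, -0.0074 and 0.0035. The ratios share 1 WT array, and the list was chosen with earlier results of these data known.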
